A study of Oryza sativa with 4 samples.

Results

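Palea of the rice rep1 mutant was compared with wild type palea by bulk RNA sequencing, gene by gene. The measure was FPKM, the number of fragments divided by transcript length and by the depth of the library, so levels are per length and relative to the rest of the library. The comparison covers the 20675 of 55986 genes in the table whose mean was at least 1 FPKM over 4 genotype means. A further 24038 genes were above 0 but under that level, and 11273 genes were at 0 in every run. The rep1 plants carried a deletion and had, like the wild type plants, a background labelled japonica. A Tos17 insertion line, Osmads6, was labelled Nipponbare, and a T-DNA insertion line, Osmads32, was labelled AF36. All plants grew in a paddy field in Shanghai, and no stage of the palea, number of plants or harvest date was given. GEO lists 1 sample per genotype with 2 columns of values, which were taken as 2 runs of that sample, so n = 1 per genotype, and the differences carry neither a test nor a p-value. A gene is called higher or lower when its ratio, log2 of (rep1 mean + 1) over (wild type mean + 1), is at least 2-fold.

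The palea is the upper of the pair of bracts that form the rice hull, facing the lemma across the flower. REP1 (RETARDED PALEA1) encodes a TCP transcription factor known for promoting palea growth and differentiation and for the asymmetry of the floret. MADS-box factors set the identity of the floral organs, YABBY and HD-ZIP III factors pattern the sides of lateral organs, and KNOX factors keep meristem cells undifferentiated. As the hull matures, cellulose and lignin of secondary walls stiffen it, while expansins and primary wall cellulose synthases act during cell expansion.

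The read depth worked out from the smallest steps of the FPKM values was 38.0 M and 36.0 M reads in the runs of the library labelled rep1, and 52.1 M and 46.7 M reads in those of the library labelled wild type. The runs of rep1-labelled palea differed by at least 2-fold in 168 genes, against 477 genes between the runs of wild-type-labelled palea. The targeted genes do not all go with their labels. OsMADS6 averaged 842 FPKM in the library labelled rep1, 127 FPKM in the library labelled Osmads6 and 262 FPKM in the library labelled Osmads32, and the wild-type-labelled library had the least, 13.5 FPKM. OsMADS32 averaged 2.78 FPKM in the library labelled rep1, 14.9 FPKM in the library labelled Osmads6 and 8.32 FPKM in the library labelled Osmads32, against 7.19 FPKM in the library labelled wild type, so it was not lowest under its own label either. The symbol OsMADS32 was absent from RefSeq, so its pairing with a locus could not be checked. Every direction given here takes the labels as they stand. With the wild type and Osmads6 columns exchanged, 78.6% of the higher calls and 72.9% of the lower calls were kept, 13 higher genes became lower and 18 lower genes became higher.

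REP1 was taken as LOC_Os09g24480 from rice nomenclature. The pair did not pass the check of names, since RefSeq had that symbol on another chromosome only. REP1 at this locus was close to undetected in all 4 libraries. It had 2 and 0 reads in the runs of rep1-labelled palea, against 4 and 11 reads in the runs of wild-type-labelled palea, so the runs lie apart on very few reads. The sums over both runs were 10 reads in the library labelled Osmads6 and 6 reads in the library labelled Osmads32. Its locus neighbours on chromosome 9 were looked at after their values had been seen. The next locus had 0 and 0 reads in rep1-labelled palea, against 19 and 11 reads in wild-type-labelled palea, and 10 and 12 reads in all in the libraries labelled Osmads6 and Osmads32. The third locus along had 0 and 3 reads in rep1-labelled palea, against 50 and 40 reads in wild-type-labelled palea, while the locus between them was at 0 in all 8 runs. On either side the reads were similar: the locus before REP1 had 476 and 417 reads in rep1-labelled palea and 370 and 432 reads in wild-type-labelled palea, and the fourth locus after it had 594 and 505 reads against 601 and 705 reads. The next and the third locus after REP1 thus had fewer reads in rep1-labelled palea, on low numbers. REP1 itself had too few reads to place an edge, and the locus at 0 in all 8 runs can show no difference. Whether these low reads come from the deletion was not tested. The extent of the deletion is not given in the sources used here.

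**Figure D1:**
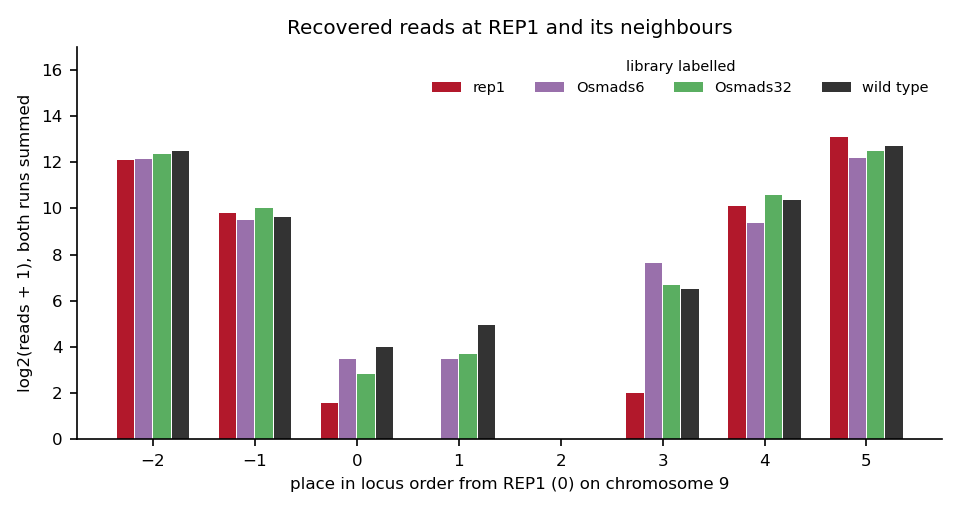
Reads recovered from the FPKM values, summed over both runs of each library, as log2(reads + 1), at REP1 (place 0) and its neighbours in locus order. At places 0, 1 and 3 the library labelled rep1 had 2, 0 and 3 reads, against 15, 30 and 90 reads in the library labelled wild type, and at place 4 it had 1099 against 1306 reads.

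Across the 20675 genes, 1060 were higher in rep1-labelled palea (5.13%) and 1815 were lower (8.78%), together 13.9%. Counts within the lists below are to be set beside these shares, and in a short list few genes make up such a share. The runs of rep1-labelled palea did not overlap those of wild-type-labelled palea in 1055 of the higher and 1805 of the lower genes. Over all 20675 genes, both rep1 runs lay above both wild type runs in 23.1% and below them in 40.8%, so non-overlap of the runs is common. The median log2 ratio over all genes was -0.15, and scaling each run by median ratios moved it to -0.01. At a threshold of 4-fold, 220 genes were higher and 394 lower; at 16-fold, 11 were higher and 35 lower. Genes with a mean under 5 FPKM were higher in 3.94% and lower in 9.05% of 7114 cases, whereas genes of at least 50 FPKM were higher in 9.93% and lower in 8.39% of 2205 cases. Near the threshold, 163 genes had a log2 ratio just past it on the higher side and 207 just short of it, and 307 and 413 genes did so on the lower side. In bulk palea, fewer cells of a type and less RNA per cell cannot be told apart. Set against all 6 other runs, both rep1 runs stood above in 924 of the 1060 higher genes (87.2%) and below in 1558 of the 1815 lower genes (85.8%). Over all 20675 genes, 14.4% had both rep1 runs above the 6 others and 26.6% had them below. The called genes were picked by their distance from the wild type runs, so these shares are no like measure for them. Both rep1 runs lay above both wild type runs in 4769 genes, and above all 6 other runs in 2981 of these. On the lower side the numbers were 8438 and 5504.

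**Figure D2:**
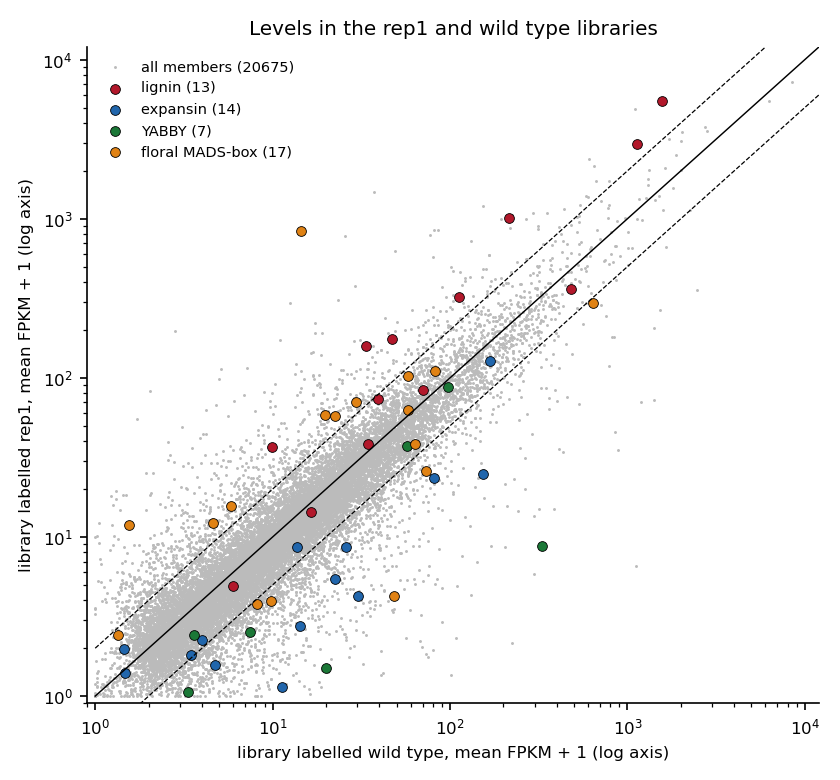
Mean FPKM + 1 over 2 runs in the library labelled rep1 (vertical, log axis) against the library labelled wild type (horizontal, log axis) for 20675 genes, with 2-fold lines dashed. OsMADS6 lies at 842 FPKM in rep1-labelled palea against 13.5 FPKM in wild-type-labelled palea, lignin genes lie on or above the diagonal or just under it, and expansins lie mostly below it.

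Floral MADS-box genes were split in direction. Of 17 that passed the filter, 7 were higher and 5 lower in rep1-labelled palea, with a median log2 ratio of 0.83; under median-ratio scaling, or without the second wild type run, 3 instead of 5 were lower. These genes are close relatives and reads may be shared among them. OsMADS6 (LOC_Os02g45770), an AGL6-like gene of palea and floral meristem identity, had 826 and 858 FPKM in rep1-labelled palea, against 12.5 and 14.4 FPKM in wild-type-labelled palea, a ratio of 62.6-fold. As given above, its levels go against the labels wild type and Osmads6. Its relative OsMADS17 (LOC_Os04g49150) stayed within 2-fold, at 109 and 110 FPKM in rep1-labelled palea and 93.4 and 70.1 FPKM in wild-type-labelled palea.

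The higher ones included genes of stamen, lodicule and ovule identity. The B-class gene OsMADS2 (LOC_Os01g66030) had 62.4 and 51.6 FPKM in rep1-labelled palea, against 26.95 and 15.94 FPKM in wild-type-labelled palea. Its paralog OsMADS4 (LOC_Os05g34940) was 3.11-fold higher, at 11.03 and 11.52 FPKM against 4.39 and 2.86 FPKM. The other B-class gene, OsMADS16 (LOC_Os06g49840), was higher in both rep1 runs, at 110 and 94.9 FPKM against 63.2 and 51.2 FPKM in wild-type-labelled palea, but under 2-fold. The C-class gene OsMADS3 (LOC_Os01g10504), which specifies stamens, was 3.06-fold higher, with 14.4 and 15.1 FPKM in rep1-labelled palea and 4.15 and 5.49 FPKM in wild-type-labelled palea. OsMADS13 (LOC_Os12g10540), an ovule identity gene, had 10.2 and 11.5 FPKM in rep1-labelled palea, against 0.423 and 0.691 FPKM in wild-type-labelled palea. The second C-class gene, OsMADS58 (LOC_Os05g11414), was low in both and within the threshold, at 1.73 and 1.13 FPKM in rep1-labelled palea and 0.421 and 0.268 FPKM in wild-type-labelled palea; its log2 ratio of 0.85 became 1.78 with a pseudocount of 0.1 FPKM and 1.02 without the second rep1 run. In each of these genes the runs of the rep1 library lie above both wild type runs, as they do in 23.1% of all genes compared. OsMADS13 was higher still in the library labelled Osmads32, at 18.5 FPKM.

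Markers of other floral organs were read beside these genes. Of 22 anther and tapetum genes, 16 passed the filter, 1 was higher and 1 lower, and their median log2 ratio was -0.13. Their summed level was 578 and 572 FPKM in rep1-labelled palea, against 442 and 486 FPKM in wild-type-labelled palea. None of the 16 was at 0 in rep1-labelled palea, and the part of anther tissue in the MADS-box differences was not tested. CYP703A3 (LOC_Os08g03682), a pollen wall enzyme of the tapetum, was the lower one, with 4.70 and 3.41 FPKM in rep1-labelled palea and 8.87 and 9.71 FPKM in wild-type-labelled palea; under median-ratio scaling its log2 ratio of -1.03 became -0.88. Of 4 carpel and ovule genes 3 passed, of which OsMADS13 was higher, OsMADS58 within 2-fold and DL, a carpel identity gene described with the YABBY genes, lower. They summed to 12.5 and 13.0 FPKM in rep1-labelled palea and 25.3 and 14.6 FPKM in wild-type-labelled palea.

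The SEPALLATA-like genes, partners of the organ identity factors, went both ways. OsMADS7 (LOC_Os08g41950) had 53.8 and 61.3 FPKM in rep1-labelled palea, against 20.40 and 16.99 FPKM in wild-type-labelled palea. Its level was alike in the library labelled Osmads32, at a mean of 59.5 FPKM. OsMADS8 (LOC_Os09g32948) was 2.44-fold higher, at 70.9 and 67.9 FPKM against 31.4 and 25.6 FPKM. OsMADS5 (LOC_Os06g06750) was 14.4-fold lower, with 3.455 and 3.103 FPKM in rep1-labelled palea and 36.4 and 58.0 FPKM in wild-type-labelled palea, the lowest ratio of the MADS-box list. OsMADS1 (LOC_Os03g11614), which specifies lemma and palea, had 249 and 337 FPKM in rep1-labelled palea, against 440 and 830 FPKM in wild-type-labelled palea. The wild type runs of OsMADS1 are far apart, and without the second one its log2 ratio of -1.11 became -0.59. The same holds for OsMADS34 (LOC_Os03g54170), a regulator of spikelet meristems and sterile lemmas, at 2.577 and 3.395 FPKM in rep1-labelled palea and 5.98 and 11.5 FPKM in wild-type-labelled palea, where -1.29 became -0.81. OsMADS34 was lower still in the library labelled Osmads32, at a mean of 1.87 FPKM.

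Of the APETALA1-like genes, OsMADS15 (LOC_Os07g01820), known for a role in palea development, was 2.89-fold lower, with 25.1 and 25.1 FPKM in rep1-labelled palea against 87.6 and 57.6 FPKM in wild-type-labelled palea. OsMADS14 (LOC_Os03g54160) and OsMADS18 (LOC_Os07g41370) stayed within 2-fold, with log2 ratios of -0.72 and 0.11. OsMADS32 (LOC_Os01g52680), a grass-specific regulator of floral organ identity, had 3.11 and 2.44 FPKM in rep1-labelled palea, against 6.63 and 7.75 FPKM in wild-type-labelled palea. Its log2 ratio of -1.12 became -0.98 under median-ratio scaling.

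No YABBY gene was higher in rep1-labelled palea and 4 of 7 were lower, with a median log2 ratio of -1.56. YAB1 (LOC_Os07g06620) had 8.57 and 7.07 FPKM in rep1-labelled palea, against 290 and 369 FPKM in wild-type-labelled palea, a ratio of 42.1-fold lower. DL (LOC_Os03g11600), which specifies carpels and forms the midrib, was 38.2-fold lower, at 0.617 and 0.381 FPKM against 24.5 and 13.6 FPKM. Both genes were also below all runs of the libraries labelled Osmads6 and Osmads32; 26.6% of all genes had both rep1 runs below all 6 other runs. YAB3 (LOC_Os10g36420) had 1.83 and 1.22 FPKM in rep1-labelled palea and 5.71 and 7.11 FPKM in wild-type-labelled palea, and YAB5 (LOC_Os04g45330) had 0.137 and 0 FPKM against 2.41 and 2.23 FPKM. YAB2 (LOC_Os03g44710) was nearly level, at 86.8 and 86.7 FPKM in rep1-labelled palea and 92.5 and 99.7 FPKM in wild-type-labelled palea. YAB4 (LOC_Os02g42950) and YAB6 (LOC_Os12g42610) stayed within 2-fold, with log2 ratios of -0.58 and -0.62.

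HD-ZIP III and KANADI genes, which set the upper and lower sides of leaf-like organs, were lower in 3 of 6 cases and higher in none, with a median log2 ratio of -1.05. HOX9 (LOC_Os10g33960) had 17.9 and 18.3 FPKM in rep1-labelled palea, against 109 and 98.0 FPKM in wild-type-labelled palea. HOX33 (LOC_Os12g41860) was 4.03-fold lower, with 2.18 and 3.81 FPKM against 10.6 and 13.5 FPKM. Of 6 TCP genes that passed, 1 was lower and none was higher, and their median log2 ratio was -0.41; REP1 itself did not reach the filter.

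Class I KNOX genes were higher in 3 of 4 cases, with a median log2 ratio of 1.66. OSH43 (LOC_Os03g56110) had 73.7 and 72.5 FPKM in rep1-labelled palea, against 22.9 and 19.2 FPKM in wild-type-labelled palea. OSH71 (LOC_Os05g03884) was 5.71-fold higher, at 13.5 and 12.8 FPKM against 2.84 and 1.74 FPKM. OSH1 (LOC_Os03g51690), the meristem maintenance gene, was low in both but apart, at 2.83 and 2.92 FPKM in rep1-labelled palea and 0.420 and 0.189 FPKM in wild-type-labelled palea. OSH3 (LOC_Os03g51710) stayed within 2-fold, at 2.79 and 2.08 FPKM against 1.97 and 1.81 FPKM. In OSH43, OSH71 and OSH1 both rep1 runs were above all 6 other runs, which 14.4% of all genes showed.

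**Figure D3:**
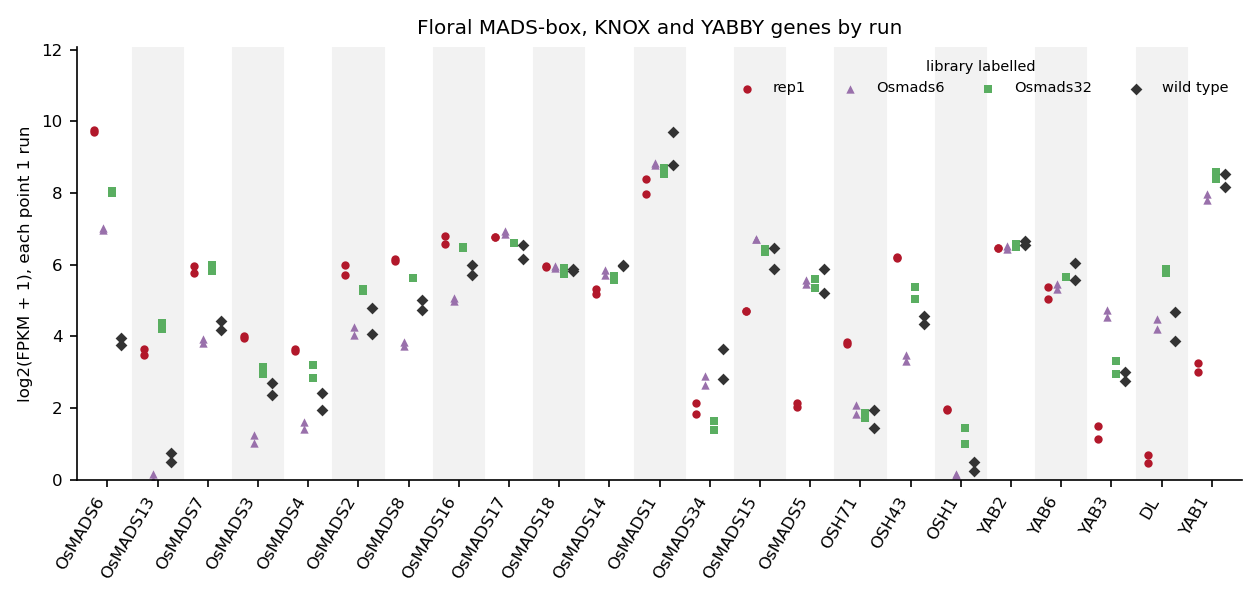
Levels as log2(FPKM + 1) of floral MADS-box, KNOX and YABBY genes, 1 point per run, for the libraries labelled rep1, Osmads6, Osmads32 and wild type from left to right within each gene. YAB1 lies at 8.57 and 7.07 FPKM in the rep1 runs against 290 and 369 FPKM in the wild type runs, while OSH43 lies at 73.7 and 72.5 FPKM against 22.9 and 19.2 FPKM.

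Of the cellulose synthases of the secondary wall, all 3 were past 2-fold on the higher side. CESA4 (LOC_Os01g54620) had 1024 and 1266 FPKM in rep1-labelled palea, against 530 and 350 FPKM in wild-type-labelled palea. CESA9 (LOC_Os09g25490) was 3.17-fold higher, at 488 and 471 FPKM against 178 and 125 FPKM. CESA7 (LOC_Os10g32980), at 367 and 354 FPKM in rep1-labelled palea and 203 and 156 FPKM in wild-type-labelled palea, sat on the threshold at 2.01-fold higher, and without the second wild type run its log2 ratio was 0.83. BC1 (LOC_Os03g30250), a COBRA-like protein of cellulose assembly, was 2.87-fold higher, with 62.2 and 49.1 FPKM against 22.84 and 16.02 FPKM. Of the 11 secondary wall regulators and assembly genes that passed, 3 were higher and none lower, with a median log2 ratio of -0.18; BC1 is the only one whose name could be checked.

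Of 13 lignin genes, 7 were higher and none lower, with a median log2 ratio of 1.37. 4CL3 (LOC_Os02g08100), a 4-coumarate-CoA ligase at the entry to monolignol synthesis, had 1060 and 952 FPKM in rep1-labelled palea, against 276 and 150 FPKM in wild-type-labelled palea. 4CL1 (LOC_Os08g14760) was 4.03-fold higher, at 33.0 and 38.9 FPKM against 9.35 and 8.50 FPKM. HCT1 (LOC_Os04g42250), named as a hydroxycinnamoyl transferase of the same pathway, had 182 and 165 FPKM in rep1-labelled palea and 53.7 and 38.9 FPKM in wild-type-labelled palea. The other 6 lignin genes lay within 2-fold, and both rep1 runs were above all 6 other runs in 9 of the 13, against 14.4% of all genes.

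Primary wall cellulose synthases were lower in 4 of 8 cases and higher in none, with a median log2 ratio of -0.94; without the second wild type run 2 were lower. CESA6 (LOC_Os07g14850) had 54.5 and 48.9 FPKM in rep1-labelled palea, against 149 and 186 FPKM in wild-type-labelled palea. CESA1 (LOC_Os05g08370) was 2.80-fold lower, at 115 and 116 FPKM against 267 and 379 FPKM. CESA5 (LOC_Os03g62090) was 2.57-fold lower, at 42.5 and 51.8 FPKM against 91.7 and 151 FPKM, and its log2 ratio was -0.94 without the second wild type run. CESA proteins are similar in sequence, and reads may be shared between the genes.

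Expansins, which loosen the wall as cells grow, were lower in 8 of 14 cases and higher in none, with a median log2 ratio of -1.58. EXPB4 (LOC_Os10g40730) had 25.3 and 22.5 FPKM in rep1-labelled palea, against 181 and 125 FPKM in wild-type-labelled palea. EXPA16 (LOC_Os06g41700) was 8.95-fold lower, at 4.18 and 2.32 FPKM against 30.1 and 28.2 FPKM. EXPA1 (LOC_Os04g15840) had 0 and 0.280 FPKM in rep1-labelled palea and 10.8 and 9.69 FPKM in wild-type-labelled palea. Both rep1 runs were below all 6 other runs in 10 of the 14 expansins, against 26.6% of all genes.

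Tubulins of the cytoskeleton were unlike among themselves, with 2 of 9 higher and 1 lower. TUBB6 (LOC_Os05g34170) was 4.04-fold higher, with 889 and 861 FPKM in rep1-labelled palea and 230 and 203 FPKM in wild-type-labelled palea. TUBB7 (LOC_Os03g56810) was 3.23-fold lower, at 40.4 and 50.3 FPKM against 116 and 177 FPKM. TUBB1 (LOC_Os01g18050) was higher, at 724 and 665 FPKM against 363 and 300 FPKM, but under 2-fold without the second wild type run, where its log2 ratio was 0.93.

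Of 12 cell cycle genes, 2 were lower and none higher, with a median log2 ratio of -0.51. CYCB2;1 (LOC_Os04g47580), a mitotic cyclin, had 0.463 and 0.245 FPKM in rep1-labelled palea, against 11.4 and 12.8 FPKM in wild-type-labelled palea. CDKB1;1 (LOC_Os01g67160), a cyclin-dependent kinase, was 12.3-fold lower, at 2.41 and 3.52 FPKM against 22.5 and 50.7 FPKM. The other 10 stayed within 2-fold, and of 7 DNA replication genes 1 was lower. Over all genes compared, 8.78% were lower. Of 12 aquaporins, only PIP2;6 (LOC_Os04g16450) was past 2-fold, with 118 and 106 FPKM in rep1-labelled palea and 307 and 206 FPKM in wild-type-labelled palea; without the first wild type run its log2 ratio of -1.19 became -0.88.

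**Figure D4:**
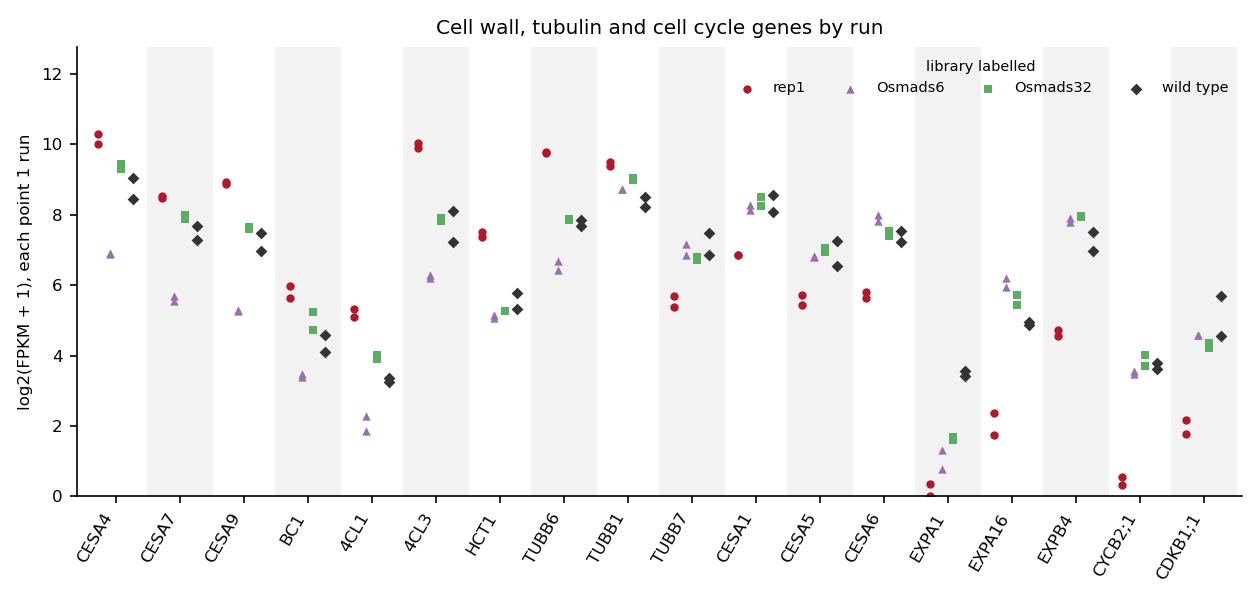
Levels as log2(FPKM + 1) of cell wall, tubulin and cell cycle genes, 1 point per run, for the libraries labelled rep1, Osmads6, Osmads32 and wild type from left to right within each gene. CESA4 lies at 1024 and 1266 FPKM in the rep1 runs against 530 and 350 FPKM in the wild type runs, and EXPB4 lies at 25.3 and 22.5 FPKM against 181 and 125 FPKM.

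Transport genes held some of the lowest ratios. NRAMP5 (LOC_Os07g15370), the manganese and cadmium transporter, had 0.296 and 0.514 FPKM in rep1-labelled palea, against 39.4 and 42.2 FPKM in wild-type-labelled palea, 101-fold lower. LSI6 (LOC_Os06g12310), a silicon channel known in rice for xylem unloading, was 18.7-fold lower, at 2.71 and 2.20 FPKM against 49.7 and 42.1 FPKM. It was the only one of 4 listed silicon transporters to pass the filter, and NRAMP5 the only one of 6 metal homeostasis genes past 2-fold. SWEET15 (LOC_Os02g30910), a sucrose exporter, had 1.28 and 0.852 FPKM in rep1-labelled palea and 28.7 and 26.9 FPKM in wild-type-labelled palea.

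Of 17 genes of sugar transport and cleavage, 4 were lower and 1 higher, with a median log2 ratio of -0.32. SWEET11 (LOC_Os08g42350), another sucrose exporter, was 5.86-fold lower, with 17.9 and 17.3 FPKM in rep1-labelled palea and 104 and 102 FPKM in wild-type-labelled palea. Its mean in rep1-labelled palea lay beside the 20.2 and 15.9 FPKM of the libraries labelled Osmads6 and Osmads32. SUT2 (LOC_Os12g44380), a sucrose transporter, had 19.0 and 18.5 FPKM against 38.1 and 42.9 FPKM, and SUS4 (LOC_Os03g22120), a sucrose synthase, was the higher one at 48.0 and 47.8 FPKM against 21.8 and 23.7 FPKM. Each was just past 2-fold and short of it without 1 wild type run, at log2 ratios of -0.98 for SUT2 and 0.99 for SUS4. Of 15 starch genes, 4 were lower and none higher, with a median log2 ratio of -0.71. Only 3 of the 15 names could be checked, and over these the median was -0.22.

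Most hormone genes stayed within 2-fold, but so did most genes compared, of which 13.9% were past it. The counts that follow are to be set beside that share. Of 10 cytokinin genes, the type-A response regulators RR9 (LOC_Os11g04720) and RR10 (LOC_Os12g04500) were lower, both by 3.01-fold. RR9 had 3.53 and 4.47 FPKM in rep1-labelled palea and 11.9 and 12.1 FPKM in wild-type-labelled palea; the pair are near-identical copies whose reads cannot be assigned with certainty. Of 12 auxin genes, 2 were lower and 1 higher, and IAA13 (LOC_Os03g53150), an Aux/IAA repressor, had 23.4 and 23.4 FPKM in rep1-labelled palea against 88.4 and 74.7 FPKM in wild-type-labelled palea. The auxin efflux carrier PIN10A (LOC_Os01g45550) was 3.26-fold lower, at 2.55 and 3.09 FPKM against 11.4 and 6.99 FPKM.

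Of 9 brassinosteroid genes, the co-receptor BAK1 (LOC_Os08g07760) was 2.96-fold lower, with 11.7 and 13.8 FPKM in rep1-labelled palea and 32.3 and 43.2 FPKM in wild-type-labelled palea. GSK2 (LOC_Os05g11730), a kinase that restrains this pathway, was also lower, at a log2 ratio of -1.05 that became -0.81 without the second wild type run. Of 9 ethylene genes, 2 were lower and 1 higher, and ACO1 (LOC_Os09g27820), an enzyme of the last step of ethylene synthesis, was 4.87-fold lower, at 8.36 and 9.46 FPKM against 55.5 and 31.3 FPKM. Of 15 jasmonate genes 3 were lower, among them the JAZ-type repressors TIFY10C (LOC_Os09g26780), 2.21-fold lower but at a log2 ratio of -0.93 under median-ratio scaling, and TIFY11E (LOC_Os10g25230), 2.58-fold lower. Of 9 abscisic acid genes, ABA8OX1 (LOC_Os02g47470), which breaks the hormone down, was 2.38-fold higher and the kinase SAPK2 (LOC_Os07g42940) was 2.36-fold lower. ABA8OX1 averaged 82.4 FPKM in rep1-labelled palea and 80.4 FPKM in the library labelled Osmads6. With the wild type and Osmads6 columns exchanged, the log2 ratios were 0.04 for ABA8OX1 and -0.61 for SAPK2. Of 12 gibberellin genes 3 were lower and none higher, with a median log2 ratio of -0.47.

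Most greening and surface genes stayed within 2-fold, as did most genes compared, of which 13.9% were past it. None of 5 light harvesting and Rubisco genes was past 2-fold, with a median log2 ratio of -0.35, and of 17 chlorophyll and GLK genes 1 was higher and 1 lower. GLK1 (LOC_Os06g24070), a chloroplast development factor, was the lower one, with 13.5 and 11.8 FPKM in rep1-labelled palea and 34.7 and 22.6 FPKM in wild-type-labelled palea; with the wild type and Osmads6 columns exchanged its log2 ratio of -1.12 turned to 1.90. Of 12 epidermis and cuticle genes, 3 were lower and 1 higher, and ROC5 (LOC_Os02g45250), an HD-ZIP IV factor of the epidermis, had 5.96 and 5.13 FPKM in rep1-labelled palea against 20.0 and 19.0 FPKM in wild-type-labelled palea.

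Of 12 heat shock genes, 6 were lower in rep1-labelled palea and 1 was higher, with a median log2 ratio of -0.70. That median was -0.34 for members averaging 5 FPKM or more, -1.07 over checked names and 0.07 with the wild type and Osmads6 columns exchanged. HSP17.4 (LOC_Os03g16020), a small heat shock protein, had 17.3 and 12.1 FPKM in rep1-labelled palea, against 194 and 154 FPKM in wild-type-labelled palea. In the libraries labelled Osmads6 and Osmads32 it averaged 14.37 and 5.999 FPKM, so the library labelled wild type is the one that stands apart. HSP24.1 (LOC_Os02g52150) and HSFA2C (LOC_Os10g28340) were 6.67-fold and 2.54-fold lower. HSP24.1 averaged 3.71 FPKM in rep1-labelled palea, and 1.13 and 0.246 FPKM in the libraries labelled Osmads6 and Osmads32. HSFA2C averaged 8.55 FPKM in rep1-labelled palea, and 10.7 and 2.57 FPKM in the libraries labelled Osmads6 and Osmads32. With the wild type and Osmads6 columns exchanged, the log2 ratio of HSP17.4 was 0.03 and that of HSP24.1 was 1.14. HSFB1 (LOC_Os09g28354), a class B heat shock factor, was 4.25-fold higher, with 95.2 and 98.5 FPKM in rep1-labelled palea and 26.3 and 19.3 FPKM in wild-type-labelled palea. Both rep1 runs of HSFB1 were above all other runs, which 14.4% of all genes showed.

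Of 10 stress NAC and DREB genes, 3 were higher and none lower. DREB1A (LOC_Os09g35030), a cold response factor, had 19.1 and 14.7 FPKM in rep1-labelled palea against 6.02 and 4.97 FPKM in wild-type-labelled palea, and its neighbour DREB1B (LOC_Os09g35010) had 45.2 and 31.9 FPKM against 21.2 and 10.3 FPKM. Leaving out the first rep1 run brought DREB1B to a log2 ratio of 0.97, and leaving out the second wild type run to 0.83. Of 8 antioxidant genes, APX2 (LOC_Os07g49400) and SODCC1 (LOC_Os03g22810) were lower, by 2.13-fold and 2.22-fold; both fell short of the threshold under median-ratio scaling, at -0.92 and -0.99. Of 9 genes often used as internal standards, 3 were lower and 1 higher, with a median log2 ratio of -0.52. Only 3 of the 9 names could be checked, and these are the lower ones named next, with a median of -1.36. GAPDH (LOC_Os04g40950) had 179 and 182 FPKM in rep1-labelled palea, against 648 and 984 FPKM in wild-type-labelled palea. ACT1 (LOC_Os03g50885) and ACT2 (LOC_Os10g36650) were 2.58-fold and 2.53-fold lower.

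**Figure D5:**
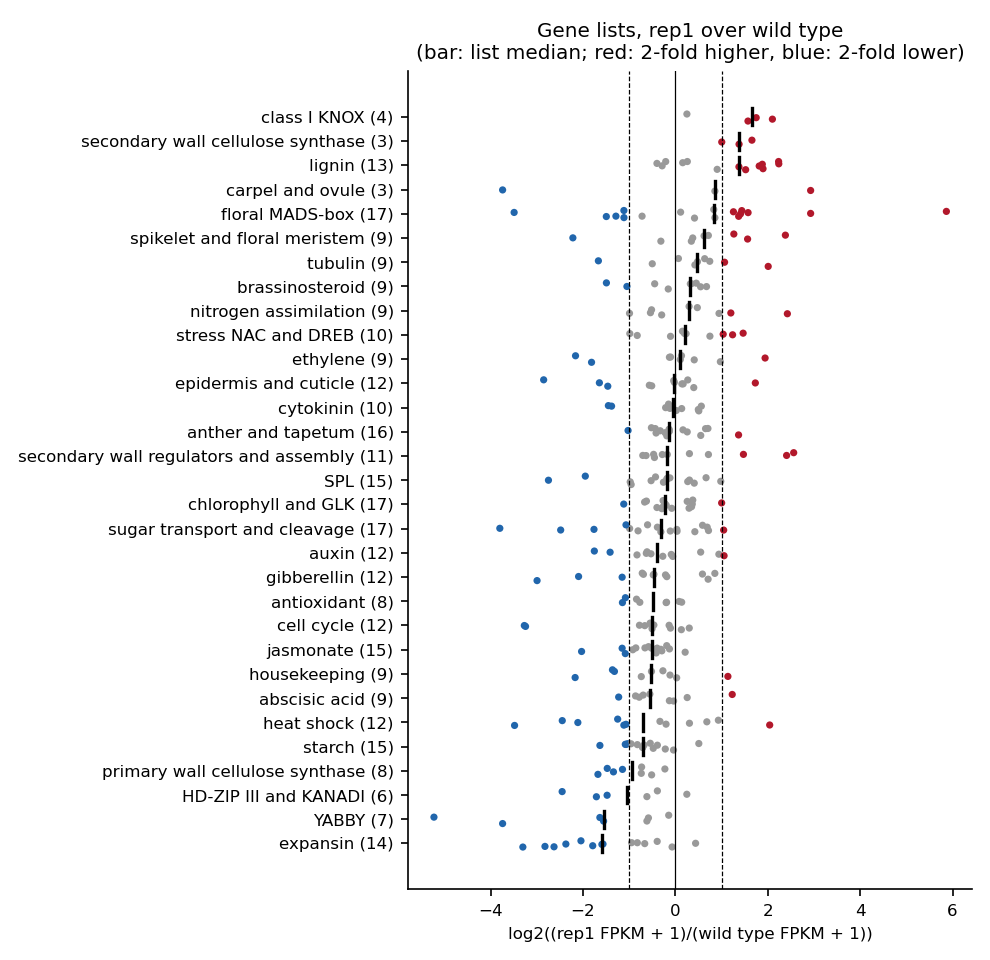
Log2 ratios of the library labelled rep1 over the library labelled wild type (horizontal) for lists with at least 3 genes passing the filter, of which at least 2 were past 2-fold, ordered by median (bars); the number that passed stands after each name. The list medians run from -1.58 for expansins to 1.66 for class I KNOX genes, against -0.15 for all 20675 genes.

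In all, 44 lists were read and 427 distinct members passed the filter, of which 42 were higher and 75 lower. Over all 20675 genes, 5.13% were higher and 8.78% lower. The lists were chosen with earlier results of these data known, so these shares are no like measure for them. In 8 lists of at least 3 members, at least 50% were past 2-fold in 1 direction. Class I KNOX, secondary wall cellulose synthase and lignin were higher. YABBY, HD-ZIP III and KANADI, primary wall cellulose synthase, expansin and heat shock were lower. In heat shock, both rep1 runs were below all 6 other runs in 0 of 12 genes, against 26.6% of all genes. In 7 lists no member was past 2-fold, among them grain and hull size (13 genes, median log2 ratio -0.40), growth-regulating factors (10 genes, 0.06, or 0.64 for those averaging 5 FPKM or more) and circadian clock and flowering (15 genes, 0.36). Of the lists not described above, spikelet and floral meristem genes were higher in 3 and lower in 1 of 9 cases (median 0.62), nitrogen assimilation genes higher in 2 of 9 (0.30), SPL genes lower in 2 of 15 (-0.19) and other MADS-box genes lower in 1 of 8 (-0.05). The lists cover 2.07% of the genes compared.

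Genes past 2-fold in the same direction, and next to each other in locus order among the genes compared, formed 6 stretches of at least 5 genes, 3 higher and 3 lower. Loci that did not pass the filter were skipped, so a stretch need not be an unbroken block. The longest was a run of 6 lower genes on chromosome 10, with log2 ratios of -3.64 to -7.40. Its genes had means of 0.360 to 5.57 FPKM in rep1-labelled palea, against 20.4 to 1112 FPKM in wild-type-labelled palea. It holds the pair of loci with the lowest log2 ratios of all 20675 genes. LOC_Os10g05930 had 3.83 and 7.32 FPKM in rep1-labelled palea, against 1222 and 1001 FPKM in wild-type-labelled palea, and LOC_Os10g05820 had 1.14 and 1.15 FPKM against 285 and 162 FPKM. Neither was low in the libraries labelled Osmads6 and Osmads32, which averaged 1759 and 1299 FPKM for LOC_Os10g05930. The other lower stretches, of 5 genes each, lay on chromosomes 4 and 6, and the higher ones, also of 5 genes, on chromosomes 2 (a pair) and 4.

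The unnamed loci with the highest ratios were LOC_Os07g44250 and LOC_Os08g44270. LOC_Os07g44250 had 196 and 195 FPKM in rep1-labelled palea, against 2.56 and 1.08 FPKM in wild-type-labelled palea, and averaged 0.770 and 8.13 FPKM in the libraries labelled Osmads6 and Osmads32. LOC_Os08g44270 had 89.4 and 72.8 FPKM in rep1-labelled palea and 1.32 and 0.734 FPKM in wild-type-labelled palea, with 46.6 FPKM in the library labelled Osmads6. The share of genes past 2-fold differed little between chromosomes, from 12.02% on chromosome 8 to 15.35% on chromosome 4. At 0 in both rep1 runs but not in wild-type-labelled palea were 28 genes, reaching at most 7.61 FPKM there, and 8 genes showed the reverse, at most 8.96 FPKM in rep1-labelled palea.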

How the data were processed

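Bulk RNA sequencing of palea gave 1 deposited table of FPKM values for 55986 locus IDs, made by the authors, with 2 columns per genotype. Messenger RNA was enriched, per the labels' protocols. The build is IRGSP 1.0, per the submitters' processing notes; the aligner, the counter and the annotation: not given in the sources used here. Columns of a genotype were averaged. Reads were recovered as whole multiples of the smallest step of each gene within 0.02 reads, for 44710 of 44713 genes above 0. Ratios used a pseudocount of 1 FPKM, which understates low genes. Folds are ratios of mean FPKM without it. Symbols were paired with locus IDs from rice nomenclature; of 555 pairs, 386 passed a check of chromosome and order (within 1 Mb) against RefSeq assembly ASM3414082v1, and 155 symbols, OsMADS32 among them, were absent from it. A further 13, REP1 among them, were found on another chromosome only, and 1 was out of place. The members and the lists were chosen with earlier results of these data known. Named were REP1, the floral MADS-box, YABBY and KNOX lists, and up to 3 checked members per list each way past 2-fold and averaging at least 5 FPKM over both libraries. The ratio step was tested on simulated data. Python 3.11.15, pandas 2.3.3, numpy 2.4.6 and matplotlib 3.10.9 were used.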

Additional observations from a re-analysis of the deposited data

How the results depend on the processing

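No paired analysis was possible because each genotype has 1 sample and no test was made. With a mean of at least 5 FPKM, 702 genes were higher in rep1-labelled palea. At 4-fold, 220 were higher and 394 lower, 614 in all. With the wild type and Osmads6 columns exchanged, 2219 genes were higher and 3425 lower, 5644 in all; stretches lower in rep1 came to 6 and lists with at least 50% of members past 2-fold to 13, and lower members to 3 among floral MADS-box genes and 5 among HD-ZIP III and KANADI genes. Under that exchange the log2 ratios of GLK1 (1.90), HSP17.4 (0.030) and HSP24.1 (1.14) changed sign. Lower floral MADS-box genes were 3 under median-ratio scaling and under centring; without 1 run they ranged from 3 to 5, and lower primary wall cellulose synthases from 2 to 4. Stretches of at least 4 genes gave 7 lower ones, and of at least 6 genes 0 higher and 1 lower. The causes were not tested. Of 81 named genes, 72 kept direction and threshold under median-ratio scaling (not OsMADS1, OsMADS32, GSK2, TIFY10C, GLK1, CYP703A3, SUT2, APX2 and SODCC1), 64 under the exchange (SWEET11, HSFA2C, ABA8OX1 and SAPK2 among those that fell short), 79 with a pseudocount of 0.1 FPKM, and 72 to 78 without 1 run. At that pseudocount OsMADS58 (1.78) and REP1 (-1.17) passed 2-fold, but REP1 is under the filter, and its value rests on very few reads and moves with the pseudocount. Of 44 list medians, 23 moved by at least 0.3 under the exchange, 6 over checked names, 5 with a mean of at least 5 FPKM, and 4 at a pseudocount of 0.1 FPKM, where the YABBY median (-2.01) lay below that of the expansins. With 1 sample per genotype, the spread between plants is unknown, and genes of a few reads, REP1 among them, allow no ratio.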

Other observations

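The clock gene LHY, singled out after its values were seen, averaged 77.5 FPKM in the library labelled rep1, 1.95 FPKM in the library labelled Osmads6 and 2.86 FPKM in the library labelled Osmads32, against 41.8 FPKM in the library labelled wild type. The sampling time of day is not given in the sources used here. Both rep1 runs were above all 6 other runs in 10 of 15 circadian clock and flowering genes, against 14.4% of all genes, although none was past 2-fold over wild-type-labelled palea.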
